A study of Mus musculus with 12 samples.

Results

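The keratin family was followed in the transcriptomes of 12 mammary tumors from 9 mice. Its members were taken by name: every row of the expression table whose symbol is Krt followed by a number, with or without a letter, and not the keratin-associated Krtap, Krtdap or Krtcap genes. This gave 51 of 47593 genes, 28 of type I and 23 of type II. A keratin is called expressed here where it reached 1 TPM (transcripts scaled for length to a common total in each tumor), a unit in which different genes of one tumor can be set side by side. All mice were MADM mutants on a mixed background, carried MADM RG;GR alleles and received no treatment, and their ages are not in the labels. In this model the MMTV-Cre transgene, which is active in mammary epithelium, drives recombination between homologous chromosomes and leaves sparse GFP+ cells null for both Brca1 and p53 among heterozygous and wild-type cells. Each library came from a whole piece of homogenized tumor and so also holds stroma and blood cells. All tumors belong to one condition, and no normal gland was analysed here. Tumors 3 and 4 came from one mouse, tumors 10, 11 and 12 from another, and each of the other 7 tumors from a mouse of its own.

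Keratins are the intermediate filament proteins of epithelial cells. A filament is assembled from pairs of 1 acidic type I chain and 1 basic type II chain, and each kind of epithelium has its customary pair. In the mammary gland Krt8 and Krt18, with Krt7 and Krt19, mark the luminal cells that line ducts and alveoli, whereas Krt5 and Krt14 mark the basal, contractile layer beneath them. Krt6a, Krt6b, Krt16 and Krt17 are known as the keratins of wounded or hyperproliferative epithelium. Krt1 and Krt10 belong to the differentiating layers of the epidermis, Krt4 and Krt13 to moist mucosa, and a large set of further genes to the hair shaft and its sheaths. The study stained for CK8 and CK14 in glands of mice at 3 months of age. It stained for CK5, E-cadherin (Cdh1) and smooth muscle actin (Acta2) in hyper-alveolarized ducts and micro-invasions, stages before frank tumors. These lesions were also stained for CK8 together with its partner chain. Keratin stains of frank tumors are not described there. Here the RNA of the genes behind CK8, CK14 and CK5 is given in every tumor, a later stage than the stained cells.

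Because paralogs in this family are very similar, the separability of their reads was examined first. In the GENCODE transcripts of GRCm38, every stretch of 75 bases, the read length, was taken from the longest coding transcript of each expressed keratin. These stretches were looked up in the transcripts of all other genes. Of 21 expressed keratins, 12 had no shared stretch, among them Krt18, Krt7, Krt19, Krt17, Krt10, Krt23, Krt79, Krt80 and Krt42. For Krt6a 42.3% of 2204 stretches also occurred in another gene and for Krt6b 39.6% of 2161, most of all in each other and in Gm5478. The coding sequences of Krt6a and Krt6b were identical at 97.8% of 1659 aligned bases. The share was 28.9% for Krt16 (most with Gm11597 and Krt14), 22.4% for Krt83 (most with Gm49425 and Krt81) and 22.0% for Krt8 (with Krt8-ps). It was 5.91% for Krt14 (with Krt16), 5.18% for Krt5, 4.54% for Krt27 and 4.18% for Krt25. How the reads of such stretches were divided between genes is not stated in the sources used here. Single values of Krt6a and Krt6b are therefore uncertain, and those of the other genes with shared stretches may be. Genes on the opposite strand overlap 7 of the 21, namely Krt5, Krt6a, Krt6b, Krt7, Krt8, Krt10 and Krt80. The library kit keeps strand, but whether counting used it is not stated in the sources used here. The stretch of 75 bases inside 1 exon in which Krt6a and Krt6b differ most is shown because it marks where reads can tell them apart. It lies in exon 4 of each gene, on the minus strand of GRCm38, at chr15:101692484-101692558 for Krt6a and chr15:101678303-101678377 for Krt6b, and the 12 bases that differ are in capitals.
Krt6a: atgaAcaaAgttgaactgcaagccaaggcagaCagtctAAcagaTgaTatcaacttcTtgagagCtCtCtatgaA
Krt6b: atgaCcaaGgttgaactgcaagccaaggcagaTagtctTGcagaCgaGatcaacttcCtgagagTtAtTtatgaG
The basal keratin Krt14 and the stress keratin Krt16 were identical at 85.5% of 1407 aligned coding bases, with a longest identical run of 134 bases, and differed most in exon 5, at 27 of 75 bases (capitals). This stretch lies at chr11:100204463-100204537 for Krt14 and chr11:100247141-100247215 for Krt16, both on the minus strand.
Krt14: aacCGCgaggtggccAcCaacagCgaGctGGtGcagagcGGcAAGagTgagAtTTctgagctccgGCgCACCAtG
Krt16: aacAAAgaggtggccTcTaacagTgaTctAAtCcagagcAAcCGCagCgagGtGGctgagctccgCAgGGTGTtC
The 2 chains of a filament are far less alike, at 55.5% of 1247 aligned coding bases between Krt8 and Krt18 and 57.6% of 1438 between Krt5 and Krt14.

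Of the 51 keratins, 21 (41.2%) reached 1 TPM in at least 1 tumor, against 43.4% of all 47593 genes of the table. A further 10 were listed above 0 and never reached 1 TPM, and 20 were listed at 0 in every tumor. A single keratin, Krt10, was at 1 TPM or more in all 12 tumors (1.96% of the family, against 25.2% of all genes). With tumor 2 set aside, 9 keratins were at 1 TPM or more in each of the other 11 tumors (17.6%, against 27.0% of all genes): Krt8, Krt18, Krt19, Krt23, Krt14, Krt16, Krt17, Krt10 and Krt80. Setting tumor 8 aside as well, 12 were (23.5%, against 27.6% of all genes), with Krt7, Krt6a and Krt79 added. A tumor expressed between 14 and 18 keratins among the 10 tumors other than 2 and 8 (27.5% to 35.3% of the family, against 32.7% to 34.5% of all genes). Tumor 8 expressed 10 keratins (19.6%, against 33.3% of all genes) and tumor 2 expressed 1 (1.96%, against 30.6%).

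Tumors 2 and 8 stood apart in the keratins and also in other markers, and tests between keratins are therefore given with and without them. The 51 keratins summed to 3.37 TPM in tumor 2 and 258 TPM in tumor 8, against 1889 to 8678 TPM in the other 10, where they made up 0.189% to 0.868% of all transcripts. The median of 4 epithelial markers (Epcam, Cdh1, Cldn3 and Cldn7) was 0.122 TPM in tumor 2 and 2.51 TPM in tumor 8, against 167 to 383 TPM elsewhere. In tumor 2 the median of 5 B lineage genes was 675 TPM, with at most 40.3 TPM in any other tumor. The defining epithelial markers were thus near 0 in tumor 2, with Epcam listed at 0. In tumor 8 the 4 fibroblast genes had a median of 333 TPM, exceeded in tumor 4 at 442 TPM, and Vim, the intermediate filament of mesenchymal cells, had its highest value of 3049 TPM. In bulk tissue, fewer epithelial cells and less keratin RNA per cell cannot be told apart.

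**Figure D1:**
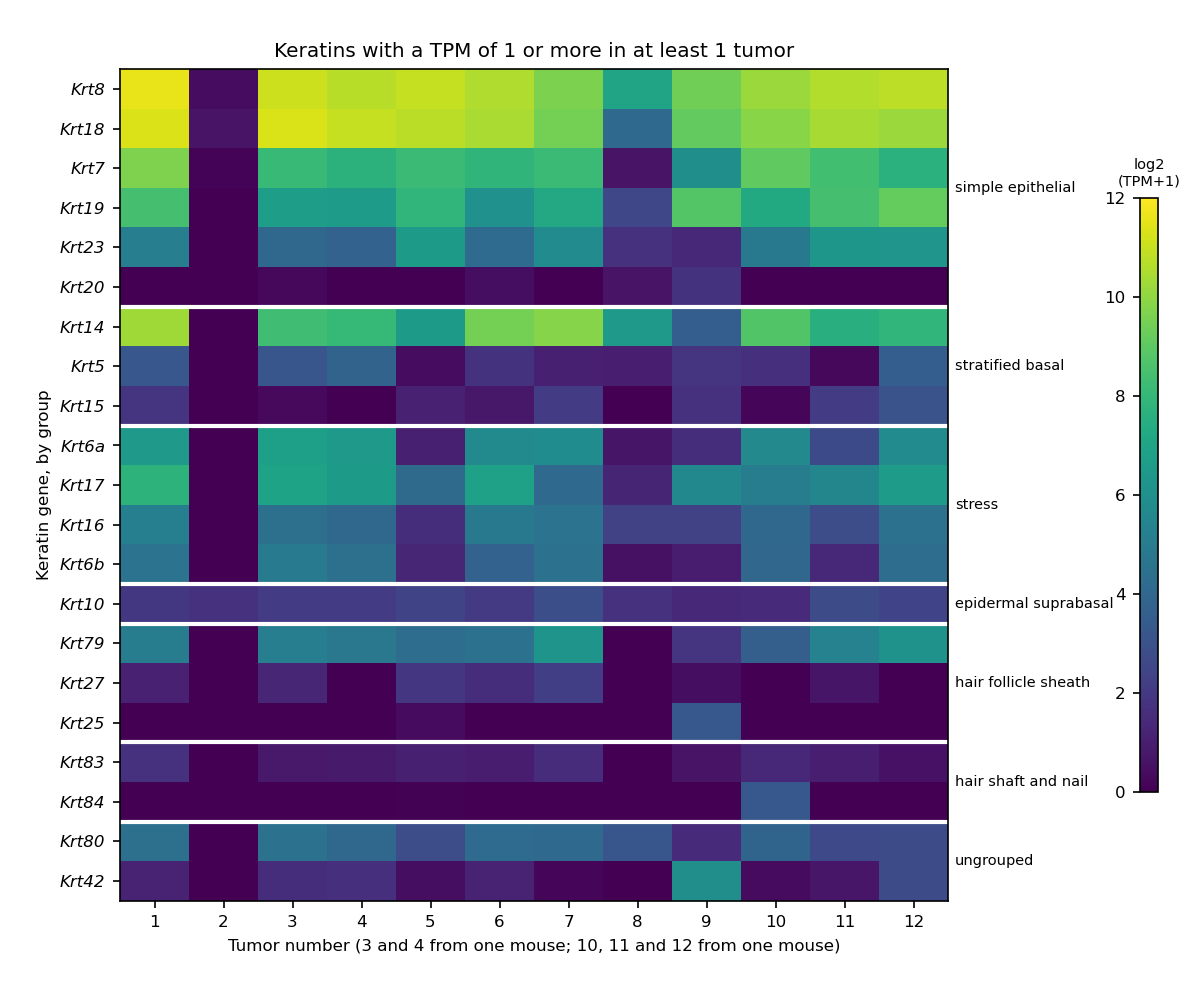
Level of the 21 expressed keratins (rows, grouped by textbook role) in the 12 tumors (columns), colored by log2(TPM + 1). Krt8 and Krt18 are the brightest rows in most tumors, tumor 2 is dark in all rows but Krt10, and tumor 8 keeps Krt8 and Krt14 above its other keratins.

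The simple epithelial keratins led the family. All 6 members reached 1 TPM in at least 1 tumor, Krt20 in tumor 9 alone, against 43.4% of all genes. In the 10 tumors other than 2 and 8 the 6 members took between 63.9% and 96.7% of all keratin TPM (median 87.9%). Krt8 (ENSMUSG00000049382, chromosome 15 from 101996698 to 102004482), the type II chain of the luminal filament, measured 3128 TPM in tumor 1, 0.326 in tumor 2, 2192 in tumor 3, 1678 in tumor 4, 1968 in tumor 5, 1526 in tumor 6, 799 in tumor 7, 128 in tumor 8, 677 in tumor 9, 1176 in tumor 10, 1576 in tumor 11 and 1783 in tumor 12. Its type I partner Krt18 (ENSMUSG00000023043, chromosome 15 from 102028180 to 102032027) measured 2635 TPM in tumor 1, 0.544 in tumor 2, 2573 in tumor 3, 1971 in tumor 4, 1744 in tumor 5, 1413 in tumor 6, 718 in tumor 7, 16.2 in tumor 8, 562 in tumor 9, 922 in tumor 10, 1376 in tumor 11 and 1162 in tumor 12. The 2 chains were thus high and low in the same tumors, and together they took 48.2% to 82.8% of keratin TPM in the 10 tumors. The ratio of Krt8 to Krt18 lay between 0.852 and 1.53 in those tumors and was 0.852 in both tumors 3 and 4, whereas in tumor 8 it was 7.89. Reads of Krt8 can also fall on its pseudogene Krt8-ps, which was listed at 0.122 to 108 TPM and was highest in tumor 1, as Krt8 was.

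Krt19 (ENSMUSG00000020911, chromosome 11 from 100140810 to 100148665), a luminal type I keratin, measured 353 TPM in tumor 1, 0 (as listed) in tumor 2, 106 in tumor 3, 98.6 in tumor 4, 241 in tumor 5, 65.2 in tumor 6, 153 in tumor 7, 4.94 in tumor 8, 436 in tumor 9, 157 in tumor 10, 347 in tumor 11 and 577 in tumor 12. It did not follow Krt8 closely: in the 10 tumors other than 2 and 8 its ratio to Krt8 ran from 0.0427 in tumor 6 to 0.644 in tumor 9. Krt7 (ENSMUSG00000023039, chromosome 15 from 101411043 to 101430313), a luminal type II keratin, measured 0.0813 TPM in tumor 2 and 0.535 TPM in tumor 8, and elsewhere from 62.4 TPM (tumor 9) to 829 TPM (tumor 1) (median of the 10 tumors 276 TPM). Tumor 9 was therefore the lowest of these 10 in Krt7 and the next to highest in Krt19. Krt23 (ENSMUSG00000006777, chromosome 11 from 99477974 to 99493137), a type I keratin of glandular epithelia, measured 34.4 TPM in tumor 1, 0 (as listed) in tumor 2, 15.7 in tumor 3, 12.6 in tumor 4, 92.6 in tumor 5, 17.2 in tumor 6, 55.0 in tumor 7, 2.32 in tumor 8, 1.54 in tumor 9, 27.6 in tumor 10, 79.5 in tumor 11 and 74.8 in tumor 12. Tumor 9, high in Krt19, was again the lowest of the 10. Krt20, the keratin of intestinal epithelium, passed 1 TPM in tumor 9 alone, at 2.39 TPM, and did not exceed 0.549 TPM elsewhere.

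**Figure D2:**
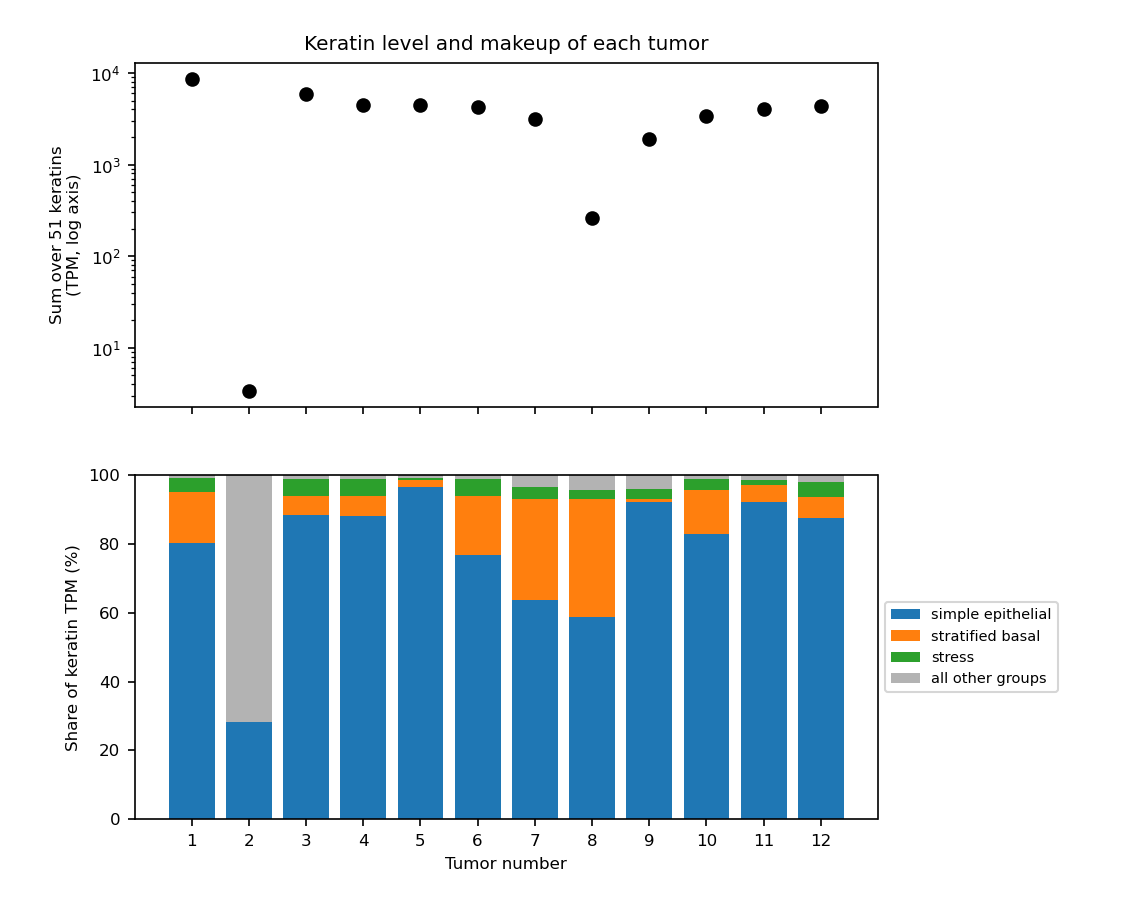
Sum of all 51 keratins in each tumor (top, TPM on a log axis) and the share of it held by each group (bottom, percent). The sum is 3.37 TPM in tumor 2, and among the other tumors the stratified basal share runs from 0.841% in tumor 9 to 34.4% in tumor 8.

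In the stratified basal group the type I chain was abundant and the type II chain was not. Krt14 (ENSMUSG00000045545, chromosome 11 from 100203162 to 100207548) measured 1266 TPM in tumor 1, 0 (as listed) in tumor 2, 318 in tumor 3, 258 in tumor 4, 93.3 in tumor 5, 717 in tumor 6, 912 in tumor 7, 87.9 in tumor 8, 11.1 in tumor 9, 431 in tumor 10, 192 in tumor 11 and 237 in tumor 12. Krt5 (ENSMUSG00000061527, chromosome 15 from 101707070 to 101712898), its customary partner, measured 8.47 TPM in tumor 1, 0 (as listed) in tumor 2, 8.29 in tumor 3, 13.4 in tumor 4, 0.313 in tumor 5, 2.42 in tumor 6, 1.07 in tumor 7, 1.04 in tumor 8, 2.54 in tumor 9, 2.21 in tumor 10, 0.195 in tumor 11 and 11.1 in tumor 12. Krt14 exceeded Krt5 in each of the 11 tumors in which it was detected, by a ratio between 4.38 in tumor 9 and 851 in tumor 7 where Krt5 was at 1 TPM or more. Tumors 5 and 11 had Krt5 below 1 TPM, with no known counting error, and no ratio is given for them. On the log2(TPM + 1) scale, with tumors of one mouse averaged, Krt14 minus Krt5 was 5.31 ± 2.82 (SD over 9 mice), positive in 8 mice and 0 in the mouse of tumor 2 (p = 0.0078 by exact two-sided sign flips over mice, and 0.018 when adjusted over 7 pairs after Benjamini and Hochberg). Without the mice of tumors 2 and 8 it was 6.05 ± 2.29 (n = 7 mice, exact p = 0.016, the smallest that 7 mice allow, and 0.055 when adjusted). Krt15, a further type I keratin of basal cells, stayed low, from 0 TPM in tumors 2, 4 and 8 to 7.38 TPM in tumor 12.

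Set beside the luminal Krt8, Krt14 was lower in 8 of 9 mice, by a mean difference of -2.06 ± 1.99 in log2(TPM + 1) (SD, p = 0.0078 by the same exact sign flips, and 0.018 when adjusted). Where Krt14 was detected, its ratio to Krt8 spanned 0.0164 in tumor 9 to 1.14 in tumor 7, the one tumor in which Krt14 ranked first among keratins. Without the mice of tumors 2 and 8 the mean was -2.51 ± 2.05 (n = 7 mice, exact p = 0.031, and 0.073 when adjusted). Markers of the basal layer that are not keratins (Trp63, Acta2, Cnn1, Oxtr and Mylk) had a list median from 0.872 TPM (tumor 8) to 9.05 TPM (tumor 12). Trp63, the gene of the basal cell factor p63, reached 1 TPM in 5 tumors and was highest in tumor 12 at 15.5 TPM. It was at 0.454 TPM in tumor 1, where Krt14 was highest, but at 13.6 and 14.2 TPM in tumors 7 and 6, which came next in Krt14. Cnn1, a smooth muscle calponin, was highest in tumor 1, at 8.18 TPM, but lowest in tumor 7, at 0.483 TPM, with 1.15 TPM in tumor 6. Oxtr was at 8.39 TPM in tumor 6 but listed at 0 in tumor 7 and at 0.613 TPM in tumor 1. Acta2, smooth muscle actin, ranged from 22.2 to 194 TPM, with 104 TPM in tumor 1, 50.4 in tumor 6 and 46.6 in tumor 7.

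All 4 stress keratins reached 1 TPM in at least 1 tumor (against 43.4% of all genes), and 3 of them followed one division of the tumors. Krt6a (ENSMUSG00000058354, chromosome 15 from 101689910 to 101694307) measured 87.1 TPM in tumor 1, 109 in tumor 3, 85.3 in tumor 4, 51.6 in tumor 6, 56.6 in tumor 7, 49.4 in tumor 10 and 55.0 in tumor 12. In the others it was at 5.40 TPM in tumor 11, 1.93 in tumor 9, 1.07 in tumor 5 and 0.619 in tumor 8, and it was listed at 0 in tumor 2. Krt6b was lower than Krt6a in 10 of the 11 tumors with either gene, from 0.464 TPM in tumor 8 to 31.2 TPM in tumor 3, with a ratio of Krt6a to Krt6b between 0.753 in tumor 5 and 4.15 in tumor 4. Krt16 (ENSMUSG00000053797, chromosome 11 from 100246091 to 100248902) measured 35.2 TPM in tumor 1, 0 (as listed) in tumor 2, 20.6 in tumor 3, 15.5 in tumor 4, 1.92 in tumor 5, 28.1 in tumor 6, 23.0 in tumor 7, 4.16 in tumor 8, 4.00 in tumor 9, 15.5 in tumor 10, 6.21 in tumor 11 and 21.4 in tumor 12. The 7 tumors with Krt6a at 49.4 TPM or more were the 7 with Krt16 at 15.5 TPM or more. Krt17 (ENSMUSG00000035557, chromosome 11 from 100256217 to 100261029) measured 213 TPM in tumor 1, 0 (as listed) in tumor 2, 123 in tumor 3, 92.8 in tumor 4, 16.5 in tumor 5, 116 in tumor 6, 16.4 in tumor 7, 1.38 in tumor 8, 48.3 in tumor 9, 31.9 in tumor 10, 45.0 in tumor 11 and 97.1 in tumor 12. It departed from Krt6a in tumor 7, which was lowest in Krt17 of the 10 tumors other than 2 and 8, and in tumors 9 and 11, which were low in Krt6a but not the lowest in Krt17.

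Whether the 2 chains of a customary pair varied together across mice was then tested. Of 7 pairs set for this, Krt4 with Krt13 gave no value because Krt13 was listed at 0 in every tumor, and adjustment was over the other 6. Krt8 and Krt18 varied together, with Pearson's r = 0.97 over 9 mice (p = 8.27e-06 by exact two-sided permutation of the pairings, 4.96e-05 when adjusted) and Spearman's rho = 0.98 (p = 4.96e-05, 0.00030 when adjusted). Since tumors 2 and 8 lie far from the rest, the value within the other 7 mice is the one to read. It was r = 0.97 (exact permutation p = 0.00060, 0.0036 when adjusted) and rho = 0.96 (p = 0.0028, 0.017 when adjusted). These 2 mice are also the 2 farthest from the median of Krt8. Both genes lie next to each other on chromosome 15. The epithelial marker median given above also varied over these tumors, and its part in the relation was not tested.

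For Krt7 with Krt19, r = 0.90 over 9 mice (exact permutation p = 0.012, 0.024 when adjusted, and rho = 0.65 with p = 0.067, 0.10 when adjusted) rested on the same 2 mice. Within the other 7 it was -0.041 (exact permutation p = 0.94) with rho = 0.25 (p = 0.59). Krt5 with Krt14 gave r = 0.57 over 9 mice (exact permutation p = 0.10, 0.12 when adjusted) and rho = 0.55 (p = 0.13, 0.16 when adjusted). Within the 7 mice it was 0.27 (exact permutation test, p = 0.58) with rho = 0.21 (p = 0.66). Without the mice of tumor 2 and of tumors 3 and 4, the 2 farthest from the median of Krt5, it was 0.36 (exact permutation p = 0.44). Krt8 with Krt14, the luminal beside the basal keratin, gave r = 0.83 over 9 mice (exact permutation p = 0.017, 0.025 when adjusted) and rho = 0.70 (p = 0.043, 0.087 when adjusted), but 0.50 within the 7 mice (p = 0.25) with rho = 0.39 (p = 0.40). This relation rested on tumor 2, without whose mouse r was 0.45 (exact permutation p = 0.26). Without tumor 8 alone it was 0.84 (exact permutation p = 0.016).

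Krt6a with Krt16 gave r = 0.94 over 9 mice (exact permutation p = 0.00032, 0.00095 when adjusted) and rho = 0.83 (p = 0.0083, 0.025 when adjusted). With the mice of tumors 2 and 8 set aside, which are also the 2 farthest from the median of Krt6a, it was r = 0.96 (exact permutation p = 0.0050, 0.015 when adjusted) and rho = 0.75 (p = 0.066, 0.20 when adjusted). The other 7 mice fall into 2 clusters, with tumors 5 and 9 low in both genes, and the larger cluster holds 5 mice, too few for a correlation to be given within it here. Over the same 7 mice, pairs that are not partners, named after their values were seen and described without a test, ranked the mice as closely or more closely. For Krt14 with Krt16, both type I, rho was 0.93 (r = 0.85), and for Krt6a with Krt80, both type II, it was 0.89 (r = 0.88). Krt14 and Krt16 share stretches of the read length, and the part of shared reads in their relation was not tested. Krt1 with Krt10 gave r = -0.063 (exact permutation test, p = 0.87) and rho = 0.061 (p = 0.88) over 9 mice, r = -0.34 (p = 0.48) with rho = -0.36 (p = 0.43) without those of tumors 2 and 8, and r = -0.079 (p = 0.86) without the mouse of tumor 1 and that of tumors 3 and 4, the 2 farthest from the median of Krt1, which never reached 1 TPM.

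**Figure D3:**
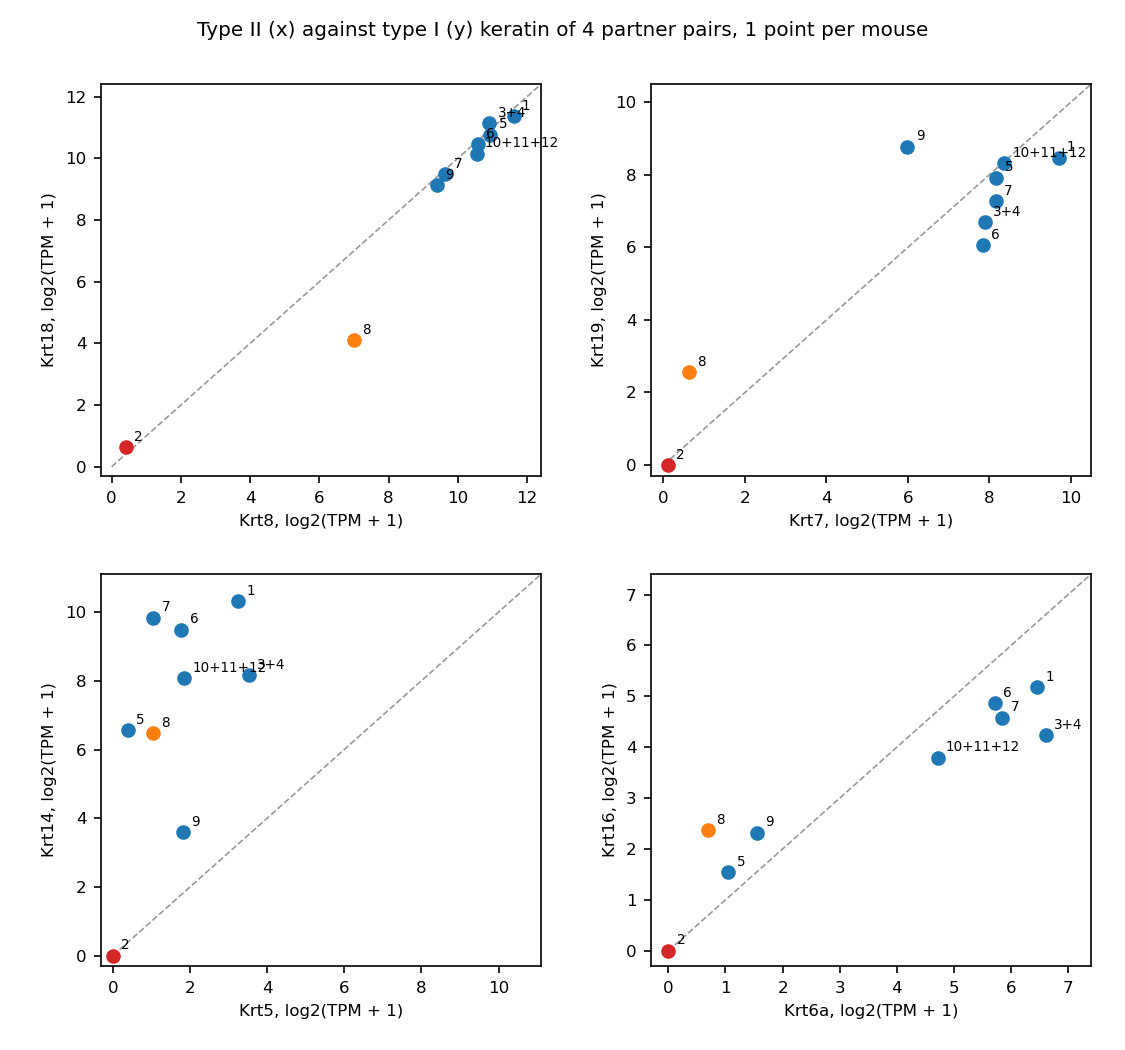
Type II (x axis) against type I keratin (y axis) of 4 partner pairs, in log2(TPM + 1), 1 point per mouse named by its tumors, with tumor 2 in red, tumor 8 in orange and equal levels on the dashed line. Krt8 and Krt18 lie near the line in all mice but that of tumor 8, while every mouse but that of tumor 2 has Krt14 above Krt5.

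Krt18 minus Krt8 was -0.42 ± 0.95 in log2(TPM + 1) and negative in 7 of 9 mice (SD, exact sign flips gave p = 0.10 and an adjusted p of 0.18). Without the mice of tumors 2 and 8 it was -0.16 ± 0.19 (n = 7 mice, p = 0.078 by exact sign flips). Krt19 minus Krt7 was -0.088 ± 1.52 (negative in 7 of 9 mice, p = 0.86 by exact sign flips), and -0.38 ± 1.51 without the mice of tumors 2 and 8 (n = 7 mice, exact p = 0.55). Krt16 minus Krt6a was -0.42 ± 1.25 (negative in 5 of 9 mice, p = 0.34 by exact sign flips, 0.39 when adjusted), and -0.77 ± 1.09 without those mice (n = 7 mice, exact p = 0.11, 0.15 when adjusted). Krt13 minus Krt4 was -0.063 ± 0.13 (p = 0.25 by exact sign flips, 0.35 when adjusted) and -0.081 ± 0.15 without those mice (exact p = 0.25), with both genes below 1 TPM throughout. Summed over the family, type I keratins had between 0.872 and 1.52 times the TPM of type II keratins in the 10 tumors, 0.865 times in tumor 8 and 7.29 times in tumor 2, where Krt10 held 2.28 of 2.97 TPM of type I.

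Krt10 (ENSMUSG00000019761, chromosome 11 from 99385254 to 99389364) was low and even. It was at 2.90 TPM in tumor 1, 2.28 in tumor 2, 3.20 in tumor 3, 3.34 in tumor 4, 4.48 in tumor 5, 3.05 in tumor 6, 6.31 in tumor 7, 2.25 in tumor 8, 1.55 in tumor 9, 1.74 in tumor 10, 5.85 in tumor 11 and 4.41 in tumor 12. Tumors 2 and 8, far below the others in Krt8 and Krt18, lay within the range of the others here. Krt1, the epidermal partner of Krt10, did not exceed 0.356 TPM, and Krt10 minus Krt1 was 1.92 ± 0.48 in log2(TPM + 1), positive in 9 of 9 mice (SD, p = 0.0039 by exact sign flips, the smallest that 9 mice allow, and 0.018 when adjusted). Without the mice of tumors 2 and 8 it was 1.98 ± 0.54 (n = 7 mice, exact p = 0.016, and 0.055 when adjusted). Of the other epidermal suprabasal keratins Krt2, Krt9 and Krt77 were listed at 0 throughout. The epidermal markers that are not keratins were near 0 as well, with a list median of at most 0.208 TPM in any tumor. However, Dsg1a, a desmosomal cadherin of that list, was at 259 TPM in tumor 9 and at most 0.459 TPM elsewhere, and Lor and Ivl were at 1.23 and 3.02 TPM in tumor 6.

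Keratins named for hair and its sheaths mostly stayed below 1 TPM, with 5 of 24 above it in at least 1 tumor, against 43.4% of all genes. Of 14 hair shaft and nail keratins 10 were listed at 0 in every tumor, and of 10 sheath keratins 5 were. Krt79, a type II keratin known from the upper hair follicle, was the main exception: tumors 2 and 8 had it listed at 0 and tumor 9 had 2.63 TPM, while the others ranged from 11.5 (tumor 10) to 73.4 TPM (tumor 7). Krt25, of the inner root sheath, was at 8.73 TPM in tumor 9 and at most 0.270 TPM elsewhere. Krt84, a hair keratin, reached 8.98 TPM in tumor 10, had 0 in its sister tumors 11 and 12, and had at most 0.0657 TPM in any other. Krt27 reached 1 TPM in 5 tumors (highest 3.69 TPM in tumor 7) and Krt83 in 4 (highest 2.30 TPM in tumor 1). The 3 hair follicle markers that are not keratins (Tchh, Hoxc13 and Msx2) had a median of at most 0.534 TPM in any tumor. Tchh, the hair sheath protein trichohyalin, reached 1 TPM in 5 tumors and was highest in tumor 3, at 10.1 TPM, and Msx2 reached 1.22 TPM in tumor 8. Hoxc13, a regulator of hair keratins, was at 0.993 TPM in tumor 10, the tumor with Krt84, and listed at 0 in the other 11. Just below the limit of 1 TPM, Krt71 reached 0.985 TPM in tumor 3, Krt76 0.553 TPM in tumor 11 and Krt73 0.475 TPM in tumor 9. None of the 6 mucosa and cornea keratins reached 1 TPM, and Krt13 and Krt24 were listed at 0 throughout.

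Another 2 keratins without a group were expressed. Krt80 (ENSMUSG00000037185, chromosome 15 from 101347444 to 101370162), a type II keratin found in many epithelia, measured 20.6 TPM in tumor 1, 0 (as listed) in tumor 2, 21.2 in tumor 3, 15.4 in tumor 4, 6.14 in tumor 5, 17.0 in tumor 6, 15.9 in tumor 7, 8.26 in tumor 8, 1.76 in tumor 9, 13.7 in tumor 10, 5.19 in tumor 11 and 5.87 in tumor 12. Tumor 8 lay inside the range of the others here. Krt42, a type I keratin at the end of the chromosome 11 cluster beside Krt17, was at 59.9 TPM in tumor 9 and at most 5.75 TPM elsewhere. Tumor 9 thus held the highest value of Krt20, Krt25 and Krt42 and, among the 10 tumors other than 2 and 8, the lowest of Krt7, Krt8, Krt18, Krt23, Krt14, Krt6b, Krt10, Krt79 and Krt80. Its B lineage median of 40.3 TPM was next to that of tumor 2, and its epithelial median was the lowest of the 10, at 167 TPM, although Epcam itself was at 914 TPM, the next to highest of all tumors. The part of either list in these values was not tested.

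By position the family forms 2 clusters. All 27 keratins on chromosome 11, between 99232761 and 100269871, were of type I, and 11 of them (40.7%) were expressed. On chromosome 15, between 101347444 and 102032027, lay the 23 type II genes and, at the end beside Krt8, the type I gene Krt18. Of these 24, 10 (41.7%) were expressed, so both clusters lay near the 43.4% of all genes. By position, without a test, Krt14, Krt16, Krt17 and Krt42 are the last 4 genes of the chromosome 11 cluster, and Krt6b, Krt6a and Krt5 are 3 in a row on chromosome 15, and all 7 were expressed. Between Krt39 and Krt15 on chromosome 11, the 9 genes from Krt40 to Krt13 were all listed at 0.

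**Figure D4:**
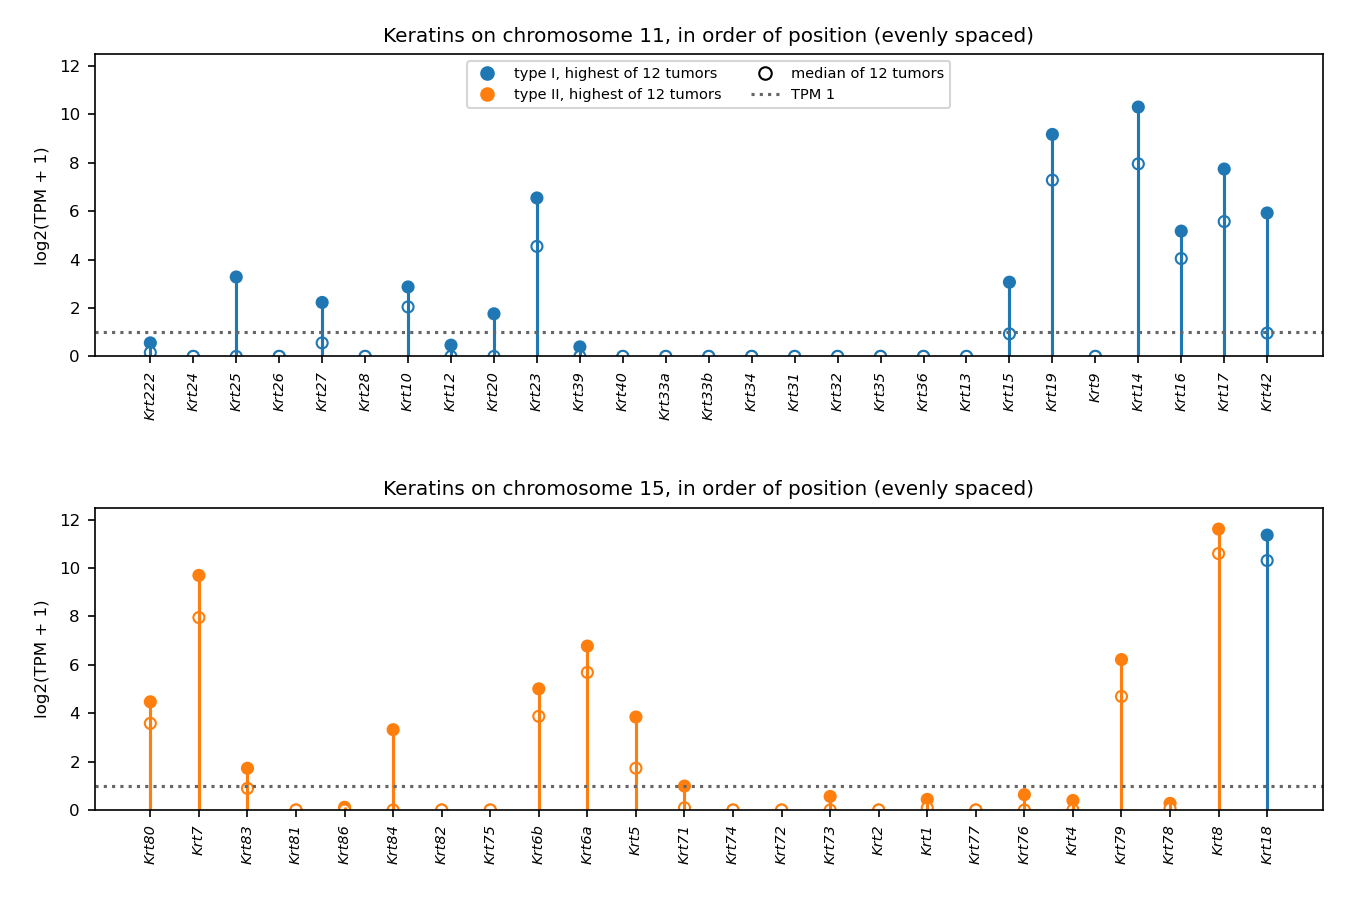
Highest (filled) and median (open) level over the 12 tumors, in log2(TPM + 1), of the keratins on chromosomes 11 and 15 in their order of position, with type I in blue, type II in orange and 1 TPM as the dotted line. The 9 genes from Krt40 to Krt13 are at 0, and Krt8 and Krt18 at the end of the chromosome 15 cluster are the highest of all.

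Tumors of one mouse differed in their keratins to different degrees. Over the 21 expressed keratins the range of log2(TPM + 1) between tumors 3 and 4 had a median of 0.32, and it was under 1 for 20 keratins. Among tumors 10, 11 and 12 the median range was 1.50, with 6 keratins under 1, and among the 11 tumors other than tumor 2 it was 4.46, with none. These groups hold 2, 3 and 11 tumors, and a range widens with their number. The same ranges over all genes were not taken, so these counts cannot be read as a trait of keratins in particular. Within the mouse of tumors 10, 11 and 12, Krt8 and Krt18 differed by 1.52 and 1.49 times from lowest to highest, Krt14 by 2.24 times and Krt19 by 3.67 times. Krt6a differed by 10.2 times, from 5.40 TPM (tumor 11) to 55.0 TPM (tumor 12), and Krt5 was below 1 TPM in tumor 11 but 11.1 TPM in tumor 12. Tumors 3 and 4 also shared skeletal muscle transcripts, with a median over 3 muscle genes of 25.3 and 16.7 TPM, and the part of these transcripts in their likeness was not tested.

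The proteins that tie keratin filaments to desmosomes and to other structures, the plakins, were read beside the family as a list of 5 genes, of which Eppk1 was not used here. Plec was at 8.51 TPM or more in all 12 tumors. Dsp, which anchors keratin filaments at desmosomes, was at 1 TPM or more in 9 tumors and below it in tumors 2 and 8 and in tumor 6, at 0.274 TPM, where Krt8 was at 1526 TPM and Krt14 at 717 TPM. Ppl and Evpl reached 1 TPM in 11 and 10 tumors. Of 6 intermediate filament genes outside the family Vim, Des and Nes were at 1 TPM or more in every tumor, with Vim lowest in tumor 2 at 92.7 TPM.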

How the data were processed

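PolyA RNA of 12 tumors was sequenced with a stranded library kit and paired reads. The authors trimmed adapters with fastq-mcf, aligned to GRCm38 with HISAT2 and made the deposited TPM values; StringTie 2.1.6 is named in the submitters' processing notes. TPM columns summed to between 999770 and 999909, hold no depth and allow no counting error, so a value of 0 is given as listed at 0.

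Values were put on the log2(TPM + 1) scale, and tumors of one mouse were averaged, giving 9 mice. Pairs were compared with exact permutation of pairings and exact sign-flip tests, two-sided, with Benjamini-Hochberg adjustment over 7 differences and 6 relations, in Python 3.11.15 (scipy 1.17.1, numpy 2.4.6, pandas 2.3.3, with figures by matplotlib 3.10.9). The code was tested on simulated data. The permutation p asks whether the pairing of genes over mice is random, and the sign-flip p whether the sign of a difference within a mouse is. Both rest on these 9 mice, or on fewer where some were set aside, all of one condition.

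Every keratin at 1 TPM or more in any tumor is named, those at 1 TPM or more in all 11 tumors other than tumor 2 are given in every tumor, and the 3 nearest below 1 TPM are named. Groups follow textbook roles, and members, pairs and marker lists were chosen with earlier results of these data known. GENCODE vM21 on GRCm38 placed all 51 keratins and gave the sequences. Alternatives were a pseudocount of 0.1, thresholds of 0.5 and 5 TPM, each tumor as a unit, rescaling without mitochondrially encoded genes, leaving out each mouse or tumor, leaving out the 2 mice farthest from the median and, chosen after seeing the data, leaving out tumors 2 and 8.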

Additional observations from a re-analysis of the deposited data

Results flagged for a closer look

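Among the 9 keratins named in every tumor, Krt8 had 1 mouse far from the rest by Dixon's criterion over 9 mice. In the mouse of tumor 2 its level was 0.41 on the log2(TPM + 1) scale, and the nearest of the other 8 was 7.01. The other 8 keratins did not pass, and chance passes about 1 in 20 such groups.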

How the results depend on the processing

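Of 207 recomputed values, 186 kept their direction and their side of the threshold or moved within the allowed spread, 9 changed sign, 5 lost and 3 gained a call, and 4 counts moved by over 1.5 times. The relation of Krt7 with Krt19 became -0.041 without the 2 farthest mice, those of tumors 2 and 8, and ranged from 0.82 to 0.96 leaving out 1 mouse, losing its call without tumor 2 or tumor 8. Krt8 with Krt14 became 0.50 without the same mice and ranged from 0.45 to 0.92, losing its call without tumor 2 and keeping it without tumor 8. Krt5 with Krt14 became 0.73 (exact permutation p = 0.030) with a pseudocount of 0.1. Krt1 with Krt10 became 0.043 with each tumor as a unit and ranged from -0.17 to 0.24. Krt18 minus Krt8 ranged from -0.50 to -0.11, with an exact sign-flip p of 0.039 without the mouse of tumor 2 or that of tumors 3 and 4, and Krt19 minus Krt7 ranged from -0.45 to 0.12. The number of keratins at the threshold in all tumors was 2 at 0.5 TPM, 0 at 5 TPM, 12 without tumors 2 and 8, and 1 to 9 leaving out 1 tumor, with 9 without tumor 2. The number in at least 1 tumor was 19 to 21 leaving out 1 tumor, 23 at 0.5 TPM, 18 at 5 TPM and 22 with TPM rescaled without mitochondrially encoded genes. All of these calls use the unadjusted p. By it, leaving out 1 mouse kept the calls for Krt8 with Krt18 (0.96 to 1.00), Krt6a with Krt16 (0.93 to 0.96), Krt14 minus Krt5 (4.88 to 5.98), Krt10 minus Krt1 (1.80 to 2.01) and Krt14 minus Krt8 (-2.34 to -1.59). Leaving out 1 mouse always keeps tumor 2 or tumor 8, so it cannot show whether a relation rests on both together. Without both, Krt8 with Krt18 kept its call by r and by rho. Krt6a with Krt16 kept it by r but not by rho (exact permutation p = 0.066), and its mice fall into 2 clusters. By the adjusted p, without the mice of tumors 2 and 8, Krt14 minus Krt5, Krt10 minus Krt1 and Krt14 minus Krt8 lost the call. Their exact sign-flip p were 0.016, 0.016 and 0.031, and 0.055, 0.055 and 0.073 when adjusted. Except where a smaller number of mice or the threshold itself sets the value, the cause was not tested. The depth of these libraries is unknown, so values near 1 TPM, as for Krt20, Krt27 and Krt83, have no known counting error.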
